A study of Homo sapiens with 2 samples.

Results

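The genes for 10 integrin subunits were examined in HEK293T cells. They were chosen by name, and comprised the beta subunits ITGB1, ITGB3, ITGB4 and ITGB5 and the alpha subunits ITGAV, ITGA1, ITGA2, ITGA3, ITGA5 and ITGA6. All 10 had a row in both tables, out of 57736 genes. Another 16 genes make up the rest of the human integrin family, and they are used here for comparison. HEK293T is an established human line of embryonic kidney origin with a transgene for the large T antigen of SV40, and the labels give its genotype as wild type. The cells were untreated, and their poly(A)+ RNA was sequenced with reads of 50 bases. There were 2 replicates in 1 group, so no condition was compared with another. The labels do not say that the replicates came from separate cultures, so the spread between them may be technical.

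Integrins are receptors in the plasma membrane, each made of 1 alpha and 1 beta subunit. The alpha subunit largely sets which ligand is bound, such as fibronectin, collagen or laminin, and the short cytoplasmic tail of the beta subunit binds talin and kindlin, which tie the receptor to actin and switch it on. ITGB1 pairs with many alpha subunits and ITGAV with several beta subunits, whereas ITGB4 pairs with ITGA6 alone and anchors hemidesmosomes, the junctions that join epithelial cells to basement membrane.

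The libraries held 10593491 estimated counts in replicate 1 and 10104118 in replicate 2. Levels are given as TPM units, which divide read counts by transcript length and bring every library to one fixed sum. Detection required 1 TPM or more in each replicate, which was reached by 27.7% of all genes and by 63.7% of the protein-coding genes. Of 22 cell type marker genes with a row, 8 were detected. They included all 4 epithelial markers and 1 of 4 kidney tubule markers, LRP2 at 8.28 and 9.96 TPM. Of the epithelial markers KRT18 (a simple-epithelium keratin) lay at 47.2 and 45.2 TPM and KRT8 at 8.57 and 7.56 TPM. CDH1 lay at 2.57 and 2.87 TPM, and EPCAM at 1.47 and 1.05 TPM with 12 and 11 counts. The markers CD3E (T cells), PPBP (platelets), CDH5 (endothelium) and AQP2 (collecting duct) had 0 counts in both replicates. Such a 0 still allows 3 counts, which is 0.283 CPM in replicate 1 and 0.297 CPM in replicate 2, and these limits cover counting error only.

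Of the 10 subunits 9 were detected, and the exception was ITGB3. Their mean levels ran from 0.26 TPM for ITGB3 to 96.7 TPM for ITGB1, and 3 of them lay above 14.7 TPM, the median of the detected genes. Together the 10 genes summed to 172.9 TPM in replicate 1 and 193.3 TPM in replicate 2. This was 74.5% ± 0.922 (SD, n = 2) of the TPM of all 26 integrin genes. Of the other 16 members of the family, 5 were detected. Over the protein-coding genes the share detected was 63.7%.

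**Figure D1:**
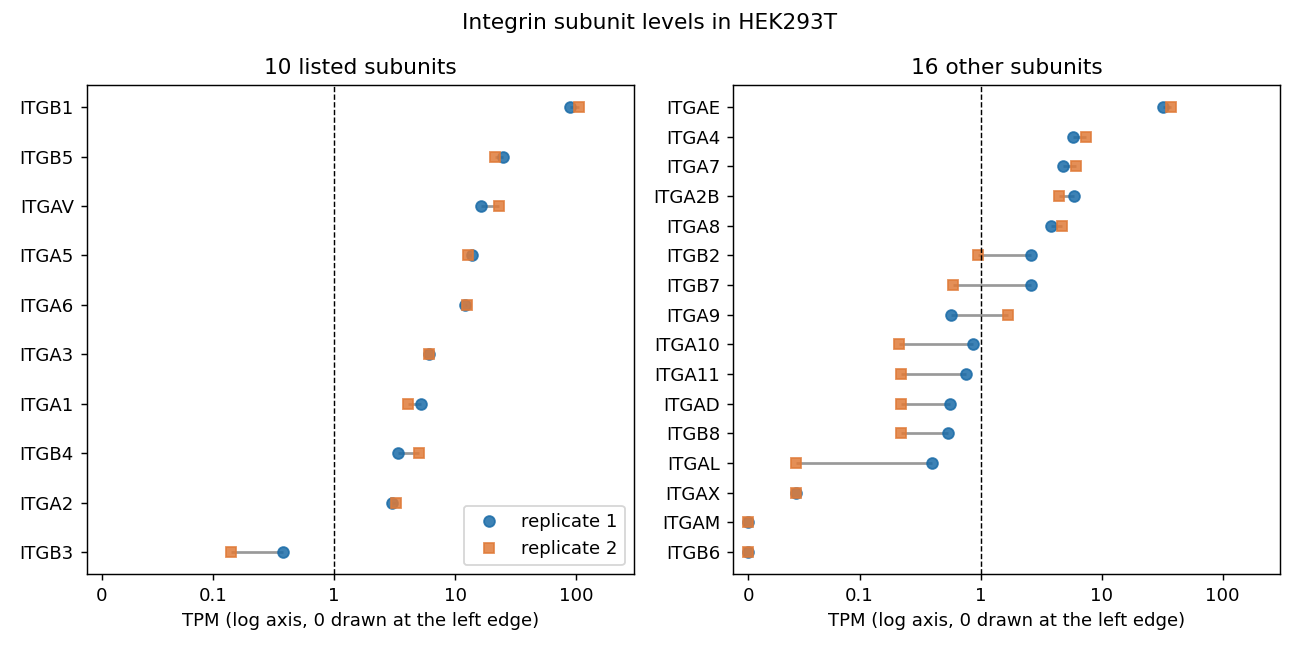
TPM (log axis) of the 10 listed subunits and of the 16 other integrin genes, with a circle for replicate 1, a square for replicate 2 and a dashed line at a TPM of 1. ITGB1 lies at 88.2 and 105.3 TPM, ITGB3 alone of the listed genes lies below 1 TPM in both replicates, and the highest of the other genes is ITGAE at 31.9 and 37.1 TPM.

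The beta subunits that the results turn on carry the docking sites for talin and kindlin in their last coding exons. For ITGB1, ITGB3 and ITGB5 the last 120 coding bases before the stop codon, read from the GRCh37 genome along the GENCODE transcripts, are shown because these tails distinguish the subunits and because the one of ITGB1 recurs in a pseudogene whose reads cannot be separated from its own. Capitals mark each in-frame run of codons for Asn-Pro, any residue and Tyr, a motif through which such tails bind adaptor proteins. In ITGB1 the run nearer the membrane is the talin site and the other one is the kindlin site. The stretches lie on chr10:33190501-33197352 (minus strand), chr17:45384947-45387567 (plus strand) and chr3:124482473-124483264 (minus strand), and each is joined from 2 coding exons.
ITGB1: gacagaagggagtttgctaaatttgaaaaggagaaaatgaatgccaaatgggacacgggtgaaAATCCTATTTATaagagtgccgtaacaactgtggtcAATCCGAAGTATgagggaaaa
ITGB3: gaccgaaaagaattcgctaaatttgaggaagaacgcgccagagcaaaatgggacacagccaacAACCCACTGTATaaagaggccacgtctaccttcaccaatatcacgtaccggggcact
ITGB5: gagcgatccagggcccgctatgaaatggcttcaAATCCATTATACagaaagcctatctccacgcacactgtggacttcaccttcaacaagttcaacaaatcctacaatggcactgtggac
The tail of ITGB1 held 2 such runs and those of ITGB3 and ITGB5 held 1 each. Only runs with Pro in second place were searched for. Further on, in lower case and in frame, ITGB3 has codons for Asn-Ile-Thr-Tyr and ITGB5 codons for Asn-Lys-Ser-Tyr. The count of runs therefore does not show that a tail lacks a kindlin site. In a global alignment the printed stretches of ITGB1 and ITGB3 were identical at 59.5% of columns. The identity was 50.4% for ITGB3 and ITGB5 and 47.7% for ITGB1 and ITGB5. The first marked run of ITGB5 has more bases after it than those of ITGB1 and ITGB3, so its stretch starts at a later point of the tail. The values with ITGB5 therefore compare partly unlike segments and do not measure the identity of whole tails. ITGB4, whose tail is far longer and built differently, was not aligned.

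ITGB1 (ENSG00000150093, chr10:33176201-33294720, GRCh37), the common beta subunit of fibronectin, collagen and laminin receptors, was the highest integrin gene. It had 1329 estimated counts and 88.2 TPM in replicate 1, and 1344 counts and 105.3 TPM in replicate 2. Its mean of 96.7 TPM ranked 1474 among the 15997 detected genes. ITGB1 made up 72.1% and 78.9% of the TPM of the 8 beta genes, a mean of 75.5% ± 4.79 (SD, n = 2). The next integrin gene by TPM, ITGAE, had at most 37.1 TPM.

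Part of the reads of ITGB1 could also have come from a pseudogene. ITGB1P1 (ENSG00000269378, chr19:14732446-14733054, minus strand) is a processed pseudogene of 609 bases with 0 mismatches to the end of the ITGB1 coding sequence, which spans chr10:33190501-33200521 in 4 exon pieces. The stretch covers 25.3% of that coding sequence and includes the tail printed above, so all 560 of its 560 windows of 50 bases, the read length, also occur in ITGB1. The tables gave ITGB1P1 14.2 counts in replicate 1 and 24.8 in replicate 2. The posterior SD of these counts, a measure of how uncertain the sharing of reads is, was 11.7 and 14.6, and ITGB1 had the same posterior SD in each replicate. The counts of the 2 genes added up to whole numbers, 1343 and 1369. ITGB1P1 took 1.06% and 1.81% of these sums. The posterior SD was 0.880% and 1.09% of the count of ITGB1, whereas for ITGB1P1 it was close to the count itself in replicate 1.

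ITGB5 (ENSG00000082781, chr3:124480795-124620265), which pairs with ITGAV to bind vitronectin, was second among the beta genes. It had 241 counts and 24.6 TPM in replicate 1 and 215 counts and 21.3 TPM in replicate 2. ITGB3 (ENSG00000259207, chr17:45331193-45391109), the other vitronectin receptor subunit and the platelet fibrinogen receptor subunit, had 10.6 counts and 0.38 TPM in replicate 1 and 4.0 counts and 0.14 TPM in replicate 2. ITGB3 was the lowest of the 10 genes in both libraries. At such counts the Poisson error of 1 library was 30.8% in replicate 1 and 50.0% in replicate 2.

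Of the beta subunits that pair with ITGAV only or mainly (ITGB3, ITGB5, ITGB6 and ITGB8), ITGB5 held 96.4% and 98.3% of the TPM, a mean of 97.4% ± 1.37 (SD, n = 2). ITGB8, a subunit of receptors that activate latent TGF-beta, lay at 0.54 and 0.22 TPM. ITGB6, its epithelial counterpart, had 0 counts in both replicates. The rows of ITGB3 are uncertain for another reason. The readthrough gene ENSG00000259753 shares 2266 exon bases with it on the same strand, and this gene was given 1.55 counts in replicate 1 and 0 in replicate 2.

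ITGB4 (ENSG00000132470, chr17:73717408-73753899), the hemidesmosome subunit, had only 20 counts in replicate 1 and 30 in replicate 2. Its TPM was 3.38 and 4.97, above that of ITGA2, which had 173.8 and 164.7 counts but 2.98 and 3.21 TPM. The tables gave ITGB4 a length of 842 and 889 nt, the weighted mean over the transcripts to which its reads were assigned, although its longest matched transcript has 5896 nt. For ITGA2 they gave 7869 and 7200 nt. The order of these genes therefore depended on which transcript lengths were used.

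ITGAV (ENSG00000138448, chr2:187454737-187545628), the alpha subunit of the vitronectin receptors, was the highest of the 6 listed alpha genes by mean TPM. It had 566 counts and 16.3 TPM in replicate 1 and 559 counts and 23.0 TPM in replicate 2. ITGA5 (ENSG00000161638, chr12:54789045-54813050), the alpha subunit of the main fibronectin receptor, had 312 counts and 13.9 TPM, then 303 counts and 12.8 TPM. These are the RGD-binding members of the list, so named for the Arg-Gly-Asp motif in their ligands, and the range of ITGAV lay above that of ITGA5.

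The laminin receptor subunits followed. ITGA6 (ENSG00000091409, chr2:173292082-173371187), which pairs with ITGB1 or ITGB4, had 327.7 counts and 11.95 TPM in replicate 1 and 298.0 counts and 12.5 TPM in replicate 2. ITGA3 (ENSG00000005884, chr17:48133332-48167845), the other laminin-binding member, had 84.0 counts and 6.03 TPM, then 69 counts and 6.04 TPM. The TPM of ITGA3 lay below the lower bound of its own deposited interval in both replicates, at 6.68 and 6.30 TPM. ITGA5 lay below its interval in replicate 2 only, with a lower bound of 13.2 TPM. Such a value outside its interval was found in at least 1 replicate for 14.5% of the detected genes and for 2 of the 10 subunits.

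The collagen receptor subunits were lowest among the listed alpha genes. ITGA1 (ENSG00000213949, chr5:52083750-52255039) had 138.7 counts and 5.21 TPM in replicate 1 and 130.2 counts and 4.09 TPM in replicate 2. ITGA2 (ENSG00000164171, chr5:52285170-52390609), its neighbour on the chromosome, had the counts and TPM given above. ITGA1 shares 499 exon bases on the same strand with PELO, a ribosome rescue factor gene that lies within it. PELO had 284.3 and 292.9 counts, so a part of the count of ITGA1 rested on how reads in these bases were shared out. The posterior SD of the count of ITGA1 was 0.88 in replicate 1 and 1.41 in replicate 2.

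Sorted by mean TPM the order was ITGB1, ITGB5, ITGAV, ITGA5, ITGA6, ITGA3, ITGA1, ITGB4, ITGA2 and ITGB3. Of the 9 pairs of neighbours in this order, 2 had replicate ranges that overlapped. ITGB5 and ITGAV could not be ordered, since ITGB5 was higher in replicate 1 and ITGAV in replicate 2. ITGA1 and ITGB4 also overlapped. With the wider ranges of the deposited TPM intervals 7 of the 9 pairs overlapped.

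Since the deposited TPM rests on estimated transcript lengths, the levels were also computed with the longest matched transcript of every gene, an alternative chosen after the data were seen. The lengths used by the tables were 51.7% of the longest transcript in the median over the 10 subunits, against 63.6% over the detected protein-coding genes. They ranged from 14.7% for ITGB4 to 96.1% for ITGA2. On the longest-transcript scale 8 of the 10 subunits reached 1 TPM in both replicates, as 64.1% of the protein-coding genes did. ITGB4 no longer did, with 0.729 and 1.12 TPM.

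The order also moved on this scale. ITGB1 stayed highest at 66.8 and 69.5 TPM, and ITGB3 stayed lowest at 0.383 and 0.149 TPM. ITGAV, at 17.3 and 17.6 TPM, came to lie above ITGB5, at 11.7 and 10.7 TPM. ITGA2 lay at 4.76 and 4.64 TPM on this scale, above ITGA3 at 3.30 and 2.78 TPM and ITGA1 at 2.78 and 2.68 TPM. On this scale 1 of the 9 pairs of neighbours had overlapping ranges, ITGA6 and ITGB5, which had not overlapped on the deposited scale.

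**Figure D2:**
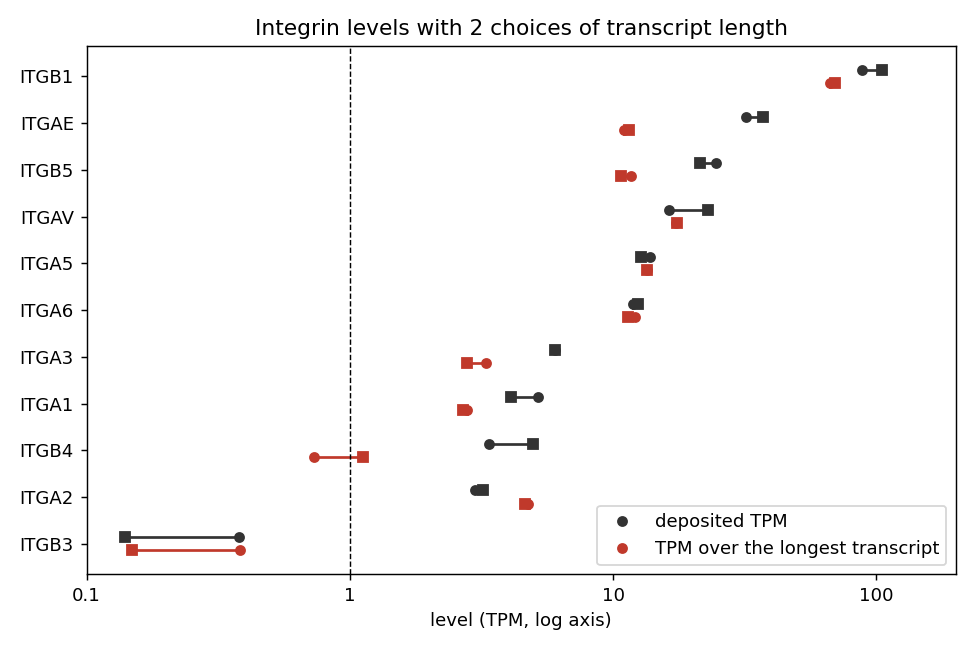
Level (TPM, log axis) of the 10 listed subunits and ITGAE with the lengths in the deposited tables (black) and with the longest transcript (red), circles for replicate 1 and squares for replicate 2, dashed line at 1 TPM. ITGB4 and ITGAE shift left most, ITGB4 to 0.729 and 1.12 TPM, and ITGA2 shifts right to 4.76 and 4.64 TPM.

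The same lengths moved with the differences between the replicates. ITGAV had nearly equal counts, 566 and 559, but its TPM differed by 0.50 on the log2 scale while its effective length differed by -0.46. ITGA1 differed by -0.35 in TPM, by -0.02 in counts relative to the library total and by 0.31 in effective length. ITGA3 went the other way, with a TPM that differed by 0.00 and counts that differed by -0.22.

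For 7 of the 10 subunits the replicates lay further apart in deposited TPM than in TPM over the longest transcript. The median absolute log2 difference was 0.23 on the deposited scale and 0.08 on the other. Over 15647 detected genes with a transcript length these medians were 0.16 and 0.12, and 9182 of them lay further apart on the deposited scale. ITGB3 and ITGB4, the members with the fewest reads, differed in their counts themselves, by -1.33 and 0.65 on the log2 scale.

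**Figure D3:**
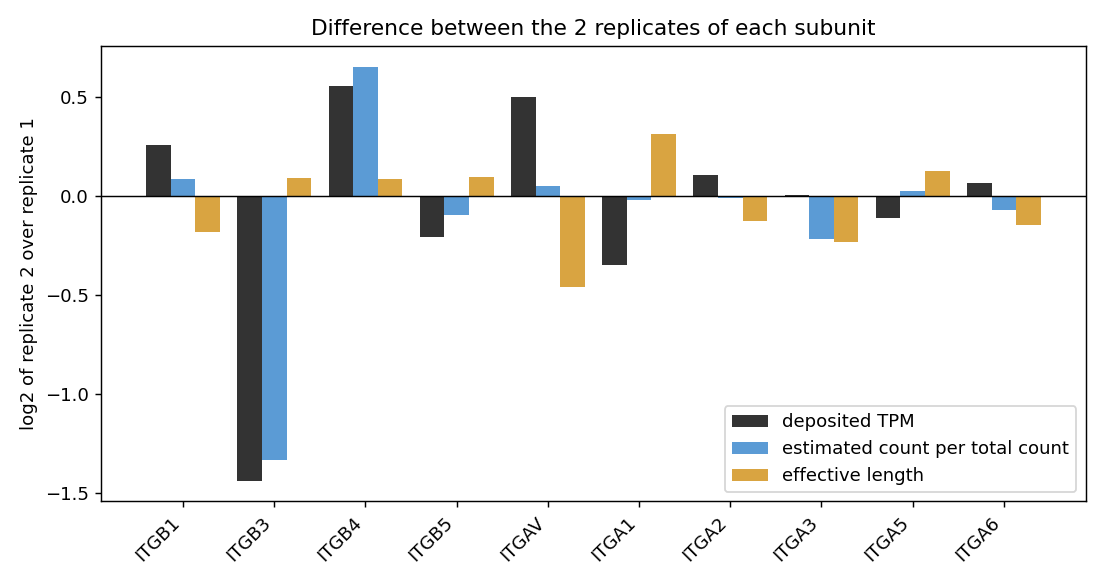
Log2 of replicate 2 over replicate 1 for each listed subunit, with bars for the deposited TPM, the estimated count per total count and the effective length. ITGAV differs by 0.50 in TPM but by 0.05 in counts, and ITGB3 by -1.44 in TPM and -1.33 in counts.

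The counts of the 2 libraries were then set against TMM-scaled library sizes in an exact binomial test (two-sided), with Benjamini-Hochberg adjustment over 17920 genes. This compares the libraries and not conditions. None of the 10 subunits differed between the libraries (0 at an adjusted p of at most 0.05, and 0 at an unadjusted p under 0.05), where 3.87% of the genes tested did and 13.3% had an unadjusted p under 0.05. ITGB1 came closest, at an adjusted p of 0.504 by this exact test, with a log2 ratio of counts of 0.09 (replicate 2 over replicate 1). Of all 26 integrin genes 21 had the 10 counts needed for the test and 0 were called.

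The known pairings give another view of the same levels. Of 24 heterodimers described for human integrins, 11 had both subunits detected at the RNA level, among them 9 of the 12 of ITGB1 and the pairs of ITGAV with ITGB5 and of ITGA6 with ITGB4. On the longest-transcript scale 10 remained, without the pair of ITGA6 with ITGB4. Of the 9 pairs formed within the 10 listed genes, 8 had both subunits detected, and the missing pair was that of ITGAV with ITGB3. RNA levels do not show which pairs formed at the cell surface.

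The 12 alpha subunits that pair with ITGB1 summed to 72.9 TPM in replicate 1 and 82.0 TPM in replicate 2. The log2 ratio of ITGB1 to this sum was 0.27 and 0.36, a mean of 0.32 ± 0.06 (SD, n = 2). With the longest transcripts it was -0.05 and 0.04, so its sign did not hold across scales. ITGAV and ITGA6 also pair with other beta subunits, so the sum includes transcripts whose products do not all pair with ITGB1. The log2 ratio of ITGA6 to ITGB4 was 1.82 in replicate 1 and 1.33 in replicate 2 on the deposited scale, and 4.06 and 3.33 with the longest transcripts. That of ITGAV to ITGB5 was -0.60 and 0.11 on the deposited scale, and 0.57 and 0.71 with the longest transcripts.

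Among the other 16 integrin genes the detected ones were all alpha subunits. ITGA4, a receptor subunit for fibronectin and VCAM1, lay at 5.80 and 7.46 TPM. ITGA7, a laminin receptor subunit best known from muscle, lay at 4.79 and 6.11 TPM, and ITGA8, which binds nephronectin in the developing kidney, at 3.84 and 4.71 TPM. The levels of these genes were of the same order as those of ITGA1, ITGA2 and ITGA3.

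ITGAE, the subunit of an E-cadherin receptor of T cells in epithelia, was the highest alpha gene of the family by deposited TPM. It had 194 counts and 31.9 TPM in replicate 1 and 198 counts and 37.1 TPM in replicate 2. ITGB7, its only known partner, had 10 and 4 counts and lay at 2.59 and 0.59 TPM. The tables gave ITGAE a length of 863 and 792 nt against a longest transcript of 3803 nt, and over the longest transcript its level was 11.0 and 11.5 TPM, below ITGAV. Its exons overlap 427 bases of HASPIN, a mitotic kinase gene on the opposite strand with 503 and 498 counts, and the part of this overlap in the count was not tested. Among haematopoietic markers PTPRC, the pan-leukocyte CD45, had 1 count in each replicate, and the myeloid genes CD14 and CSF1R had 6 to 8 counts.

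ITGA2B, the platelet partner of ITGB3, was detected at 5.95 and 4.40 TPM, with 56 and 36 counts. The platelet markers PF4 and PPBP had at most 3 counts, and GP1BA lay at 3.66 and 4.14 TPM. ITGB2, the shared beta subunit of leukocyte integrins, had 10 and 5 counts and lay at 2.63 and 0.96 TPM. Its partners ITGAM, ITGAX, ITGAL and ITGAD had 0 to 5.36 counts.

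Grouped by ligand, the RGD-binding alpha genes (ITGAV, ITGA5, ITGA8 and ITGA2B) held 36.0% ± 0.399 (SD, n = 2) of the TPM of the 18 alpha genes. The laminin-binding genes (ITGA3, ITGA6 and ITGA7) held 20.1% ± 0.327, and the collagen-binding genes (ITGA1, ITGA2, ITGA10 and ITGA11) held 7.51% ± 1.80. ITGA4 and ITGA9 formed a class of their own with 6.55% ± 1.20. The leukocyte class (ITGAD, ITGAE, ITGAL, ITGAM and ITGAX) held 29.8% ± 0.526, of which ITGAE alone made up 29.3% of the alpha total. With the longest transcripts the leukocyte class held 13.9% ± 0.559 and the RGD-binding class 48.0% ± 0.108. The RGD-binding class was the highest on both scales, whereas the leukocyte class lay above the laminin-binding class on the deposited scale and below it, at 13.9% against 21.7%, on the other.

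**Figure D4:**
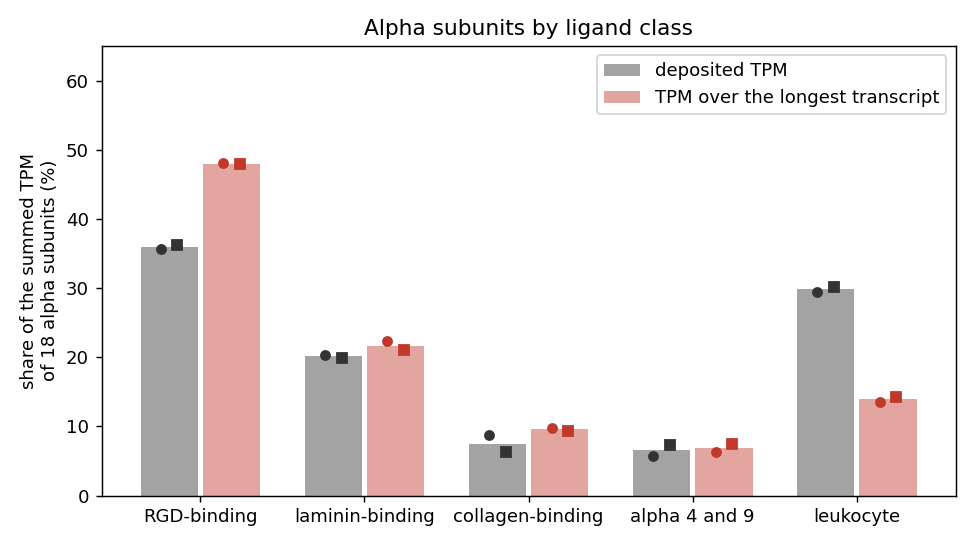
Share of the summed TPM of the 18 alpha genes held by each ligand class (%), as bars for the mean of the 2 replicates with a circle for replicate 1 and a square for replicate 2, for deposited TPM (grey) and for TPM over the longest transcript (red). The RGD-binding class holds 36.0% and 48.0%, and the leukocyte class 29.8% and 13.9%.

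Genes whose products work on the inside of the cell with integrin tails were mostly detected, 27 of 33 against 63.7% of the protein-coding genes. The talins, which bind beta tails and activate the receptor, lay at 70.9 and 72.0 TPM for TLN1 and at 7.53 and 6.71 TPM for TLN2. Of the kindlins, FERMT2 lay at 53.5 and 64.4 TPM. FERMT1 and FERMT3, the forms of epithelia and of blood cells, were below 1 TPM in 1 replicate each. With the longest transcripts FERMT1 lay at 1.58 and 1.48 TPM and FERMT3 at 0.330 and 0.169 TPM. Of the 30 genes of this list that were tested 1 differed between the libraries, against 3.87% of all genes tested. It was FERMT2, with 772.0 and 886.0 counts and an adjusted p of 0.00537 by the exact binomial test, which covers counting error only. ITGB1 lay above TLN1 in both replicates on the deposited scale, but below it with the longest transcripts, where TLN1 lay at 87.7 and 84.9 TPM.

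The ILK-PINCH-parvin complex, which links beta tails to actin, had 5 of 7 genes detected, with ILK at 49.6 and 43.9 TPM. PTK2, the focal adhesion kinase, lay at 61.4 and 71.6 TPM. Of the actin linkers 8 of 9 were detected, and ACTN4 at 186.1 and 186.8 TPM, ZYX at 170.9 and 150.5 TPM and FLNA at 133.3 and 136.2 TPM lay above ITGB1. The inhibitors of integrin activation were all detected, with ITGB1BP1, which binds the tail of ITGB1, at 60.0 and 74.2 TPM. With the longest transcripts ITGB1BP1 lay at 17.6 and 18.8 TPM. Of the hemidesmosome genes that work with ITGB4, DST lay at 42.8 and 46.6 TPM and PLEC at 21.3 and 18.8 TPM, whereas COL17A1 had 1 and 2 counts.

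Of 28 ligand genes 18 were detected, a share close to the 63.7% of the protein-coding genes. Of the 10 laminin chains 7 were detected. LAMC1, the gamma chain of most laminins, lay at 125.0 and 108.0 TPM, LAMB2 at 49.4 and 48.9 TPM and LAMB1 at 30.0 and 32.3 TPM. TGFB1, whose latent form is an RGD ligand, lay at 24.8 and 25.1 TPM, below LAMB1 and LAMB2, but above both with the longest transcripts, at 37.4 and 35.9 TPM. FN1 (fibronectin), the ligand of the receptor with ITGA5, lay at 17.3 and 17.9 TPM. COL4A2 (basement membrane collagen) lay at 11.2 and 12.2 TPM, and VTN (vitronectin), the ligand of the receptors with ITGAV, at 0.66 and 0.78 TPM. VCAM1, the ligand of the receptor with ITGA4, had 0 counts in both replicates. The growth medium contained serum, which holds vitronectin and fibronectin of its own that RNA does not show.

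**Figure D5:**
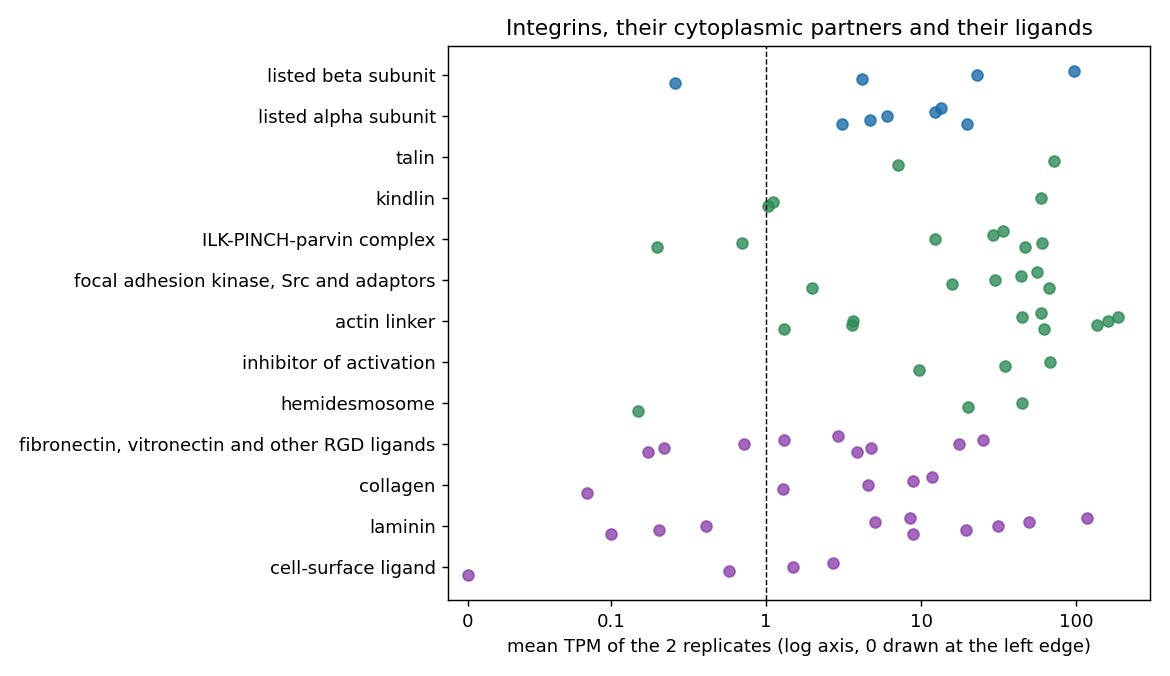
Mean TPM of the 2 replicates (log axis) of the listed subunits (blue), the genes of integrin-linked cytoplasmic proteins (green) and the ligand genes (purple), 1 point a gene, with a dashed line at 1 TPM. ACTN4, ZYX, FLNA and LAMC1 lie above ITGB1, and LAMC1 is the highest ligand gene.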

How the data were processed

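RNA-Seq tables of 2 HEK293T libraries formed 1 group by their labels. Per the submitters' processing notes, the tools were Trimmomatic 0.36, STAR 2.6.1c and RSEM 1.3.1 with GRCh37 (hg19). The study's methods name featureCounts for this step, but the tables carry the columns of RSEM. Each estimated count was made by the authors and deposited unscaled, and such counts share a read that fits several genes among them. TPM and FPKM values were deposited by the authors and divide counts by estimated transcript lengths. The posterior SD and the TPM interval bounds are scores deposited by the authors. The strand setting of the counting was not stated in the labels or methods. Counts in a pooled table of the authors lay within 1 count of the replicate sums for all 10 genes. Depth per sample is given in the report.

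Symbols, coordinates and transcripts came from GENCODE release 44 on GRCh37, which matched 55501 of 57736 identifiers. Its transcripts can differ from those the tables used. For LRP2 the longest matched transcript had 4007 nt, below the deposited lengths of 9517 and 8139 nt. TPM over the longest transcript covered the 56069 genes with a matched length. Libraries were compared by an exact binomial test (scipy 1.17.1) on rounded counts with TMM sizes (edgeR 4.0.16, R 4.3.3), over genes with 10 or more counts in the 2 libraries together, with 0.5 counts added in log2 ratios. The test was checked on simulated Poisson counts. These hold counting error only, as the test assumes, so its behaviour under wider spread was not checked. Means and SDs are of 2 replicates.

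The members, gene lists and tests were chosen with earlier results of these data known. Genes named were integrins, the listed cytoplasmic, ligand and marker genes, and genes whose exons overlap a listed integrin. ITGB1P1 and HASPIN were named after their values were seen. Alternatives were other thresholds, scales, library sizes, filters, the pooled table and leaving out each replicate. The level of 1 haematopoietic marker is not reported here, though it is part of the marker count.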

Additional observations from a re-analysis of the deposited data

How the results depend on the processing

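With 1 group and 2 libraries the spread of each value rests on 2 measurements, and no level was tested between genes. Low counts limited ITGB3, ITGB4 and most of the undetected integrins. No paired analysis was possible because there was only 1 group.

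The listed subunits detected numbered 6 to 10 over the thresholds and scales tried, and none differed between the libraries under the 5 alternative settings of the binomial test (smallest adjusted p of any listed subunit 0.439 to 0.762), of which the one on genes with whole counts left 4 of the 10. Of the other integrin genes 12 were detected at a TPM of 0.1 and 12 by posterior mean TPM, which adds a prior to every transcript, but 2 at a TPM of 5. The ligand genes detected numbered 10 at a TPM of 5. The share of ITGB1 in the beta subunit TPM was 68.4% by posterior mean TPM and 83.5% by counts per kb of the longest transcript. The share of ITGB5 among the beta subunits that pair with ITGAV only or mainly was 89.2% and 95.7% in these settings. The log2 ratio of ITGB1 to its alpha partners changed sign in both, to -0.073 and -0.0092, and was 0.27 to 0.36 when either replicate was left out. The log2 ratio of ITGAV to ITGB5 was -0.25 in the mean of the replicates. It was 0.64 by counts per kb of the longest transcript, and -0.60 to 0.11 when either replicate was left out. The log2 ratio of ITGA6 to ITGB4 was 1.58 in the mean and 3.70 by counts per kb of the longest transcript. The number of overlapping neighbours changed from 2 to 1 by posterior mean TPM, to 1 with the longest transcripts and to 7 with the TPM intervals. The longest-transcript scale for detection and for the order of levels, and all settings for the class shares and the ratios of ITGAV to ITGB5 and of ITGA6 to ITGB4, were added after the data were seen. Apart from the construction of each scale, the cause of these shifts was not tested.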
